A study of Mus musculus with 4 samples.

Results

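The sites described here are 3582 peaks that the authors called in fibroblasts grown without doxycycline, that overlapped no peak of the induced cells, and that lay inside protein-coding genes, away from the genes' ends. They come from ChIP-seq, the sequencing of chromatin fragments pulled down here by an antibody to the HA tag, in mouse embryonic fibroblasts (MEFs) with HA-tagged Fbxl10. They were 34.6% (33.7 to 35.6) of the 10345 peaks found only without induction, out of 16029 peaks in the 2 deposited lists together. Members were chosen by measured values: overlap with no induced peak, and a midpoint inside a protein-coding gene of RefSeq assembly GRCm38.p6 and more than 1 kb from every start and end of such a gene. Both ends of a gene are called its borders below, and what remains of the gene beyond 1 kb of any border is called its interior. The counts, lengths and scores of members describe this choice and carry no test.

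All cells carried the HA-Fbxl10 overexpression model. The non-induced HA ChIP library came from cells without doxycycline, and the induced one from cells given 1 µg/ml doxycycline for 48 hours, each with an input library from the same condition. The labels give no strain, age or sex, do not name the promoter that drives the transgene, and do not say how much HA-Fbxl10 is made without doxycycline. There are 4 labelled libraries and 1 peak list per condition, although the protocol speaks of 3 independent samples, so no value below has a replicate check. Read counts are not in the lists, so depth is unknown. Intervals are exact at 95% (Clopper-Pearson for shares, Poisson for densities, order statistics for medians), except that of a difference in medians, and cover counting error only. Peak lists do not measure expression, so the labelled cell type could not be checked against its marker genes.

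Fbxl10, also called Kdm2b, is a JmjC-domain histone demethylase that acts on histone H3 lysine 36. Its CXXC zinc finger binds DNA with unmethylated CpG dinucleotides, which are concentrated in CpG islands at gene starts, and there it recruits the Polycomb complex PRC1.1. The longest mammalian genes are mostly intron, many of them encode adhesion proteins, receptors and ion channels of synapses, and several span common fragile sites, which break when replication is slowed.

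Sequence could be read only where a member touched a promoter window, the 250 bases before to 50 bases after a start site in the RefSeq promoter table (GRCm38.p6), because no genome sequence was used. Few members did: 9 of 3582 (0.251%, 0.115 to 0.476) overlapped any of the 32851 windows, and they touched 10 windows. The share that an even spread over gene interior would give was not computed. Of the 1737 induced-only peaks chosen by the same position rule, 252 (14.5%, 12.9 to 16.3) overlapped 296 windows. The motif searched was the dinucleotide CG, which reads the same on both strands. The 10 windows at members held a median of 4 CG (0 to 33), and the 296 at induced-only peaks a median of 20 (2 to 54). The median was 6 over the 6611 windows inside coding genes and 7 over all 32851. Some of the touched windows lay outside the set inside coding genes. At least 10 CG were present in 3 of the 10 windows (30%, 6.67 to 65.2), in 88.9% (84.7 to 92.2) of the 296, in 33.2% of all windows inside coding genes and in 43.5% of all 32851 windows.

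Printed below are 4 windows at members, which span the range of CG found there apart from 1 grazed window, and 2 at induced-only peaks for comparison. Each runs 5′ to 3′ along its gene's strand with every CG in capitals. Prkd3 encodes protein kinase D3, and its window (chr17:79008456-79008755, minus strand) had 2 CG and a member of score 73.77. Gm12709 is a non-coding gene inside Tctex1d1, and its window (chr4:102989706-102990005, minus strand) had 0 CG and lay wholly within a member of score 69.05. Nudt16 encodes a Nudix nucleotide hydrolase, and its window (chr9:105131756-105132055, minus strand) had 15 CG under a member of score 63.26. Dlx6os2 is a non-coding gene within the homeobox gene Dlx6, and its window (chr6:6865101-6865400, minus strand) had 10 CG under a member of score 55.91. Smarcd3, a subunit gene of BAF chromatin remodellers (chr5:24601953-24602252, minus strand), had 40 CG and an induced-only peak of score 255.76. Mga, the gene of a MAX partner protein (chr2:119896978-119897277, plus strand), had 24 CG and an induced-only peak of score 211.4.
Prkd3: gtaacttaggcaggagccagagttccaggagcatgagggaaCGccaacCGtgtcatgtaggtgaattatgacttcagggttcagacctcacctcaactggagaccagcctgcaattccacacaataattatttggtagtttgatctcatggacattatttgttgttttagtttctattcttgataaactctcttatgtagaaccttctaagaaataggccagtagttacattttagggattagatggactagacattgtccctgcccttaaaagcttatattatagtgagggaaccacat
Gm12709: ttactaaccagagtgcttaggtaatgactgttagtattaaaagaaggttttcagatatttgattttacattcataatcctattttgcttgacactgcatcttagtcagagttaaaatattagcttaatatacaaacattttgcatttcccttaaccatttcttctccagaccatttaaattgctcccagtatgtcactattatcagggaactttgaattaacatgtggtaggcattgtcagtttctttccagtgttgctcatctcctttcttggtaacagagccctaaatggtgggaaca
Nudt16: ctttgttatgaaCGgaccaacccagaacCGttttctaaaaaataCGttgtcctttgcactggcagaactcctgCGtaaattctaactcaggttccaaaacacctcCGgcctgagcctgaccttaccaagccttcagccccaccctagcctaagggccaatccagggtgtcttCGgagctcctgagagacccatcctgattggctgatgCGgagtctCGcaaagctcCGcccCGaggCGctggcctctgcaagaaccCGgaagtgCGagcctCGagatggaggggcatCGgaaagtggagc
Dlx6os2: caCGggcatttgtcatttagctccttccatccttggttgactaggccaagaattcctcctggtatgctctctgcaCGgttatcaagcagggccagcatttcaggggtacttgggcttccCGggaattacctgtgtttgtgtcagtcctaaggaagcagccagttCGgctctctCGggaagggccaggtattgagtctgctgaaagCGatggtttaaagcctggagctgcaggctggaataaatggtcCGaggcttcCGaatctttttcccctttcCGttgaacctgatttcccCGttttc
Smarcd3: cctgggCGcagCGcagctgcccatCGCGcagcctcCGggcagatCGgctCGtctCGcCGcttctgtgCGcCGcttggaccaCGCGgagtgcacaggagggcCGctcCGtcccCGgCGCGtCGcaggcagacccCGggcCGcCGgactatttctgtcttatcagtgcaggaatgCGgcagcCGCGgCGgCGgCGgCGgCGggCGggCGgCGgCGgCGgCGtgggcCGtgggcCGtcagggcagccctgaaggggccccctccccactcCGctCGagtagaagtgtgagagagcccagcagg
Mga: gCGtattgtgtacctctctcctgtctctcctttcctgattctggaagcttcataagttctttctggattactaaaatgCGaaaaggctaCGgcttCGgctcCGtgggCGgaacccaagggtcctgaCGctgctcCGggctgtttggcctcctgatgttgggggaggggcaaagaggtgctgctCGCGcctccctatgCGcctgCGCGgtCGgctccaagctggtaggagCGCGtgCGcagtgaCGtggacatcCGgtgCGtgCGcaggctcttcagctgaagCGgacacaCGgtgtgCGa

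In the printed windows the capitals are sparse in Prkd3, absent from Gm12709 and more frequent in Nudt16 and Dlx6os2, and most frequent in Smarcd3 and Mga. The window with the most CG at a member, that of the deubiquitinase gene Usp2 (33 CG), was touched over only 15 of its 300 bases. The others were 2 overlapping windows of Acin1 (4 and 5 CG), which encodes an RNA-processing protein, and those of the non-coding genes Gm46557 in Jam2 (1), Gm3704 in Stard13 (4) and Gm52893 in Met (2). The windows cover a small part of the sequence under members, so the CG content of most members was not measured. Members also overlapped 3 miRNA hairpins: Mir6899 inside Klf7, Mir763 inside Hmga2 and Mir691 inside Robo2, with scores of 65.61, 70.56 and 51.03.

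Members were denser in longer genes. Over 988 Mb of gene interior they averaged 3.62 per Mb (3.51 to 3.74). The density was 1.69 per Mb (1.39 to 2.04) in genes under 20 kb and 3.07 (2.80 to 3.37) at 20 to 50 kb. It was 3.29 (3.02 to 3.57) at 50 to 100 kb, 3.49 (3.23 to 3.76) at 100 to 200 kb and 3.89 (3.64 to 4.16) at 200 to 500 kb. The highest values were 4.40 (4.02 to 4.81) at 500 to 1000 kb and 5.42 (4.92 to 5.95) from 1000 kb upward. The 3 classes between 20 and 200 kb have overlapping intervals, while those of the shortest and the longest class stand clear of each other. Genes of 500 kb and over held 916 members (25.6%, 24.2 to 27.0) on 19.2% of all interior sequence, at a density 1.82 times (1.64 to 2.02) that of genes under 50 kb. No test was made of this ratio, since the rule placed members by gene.

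**Figure D1:**
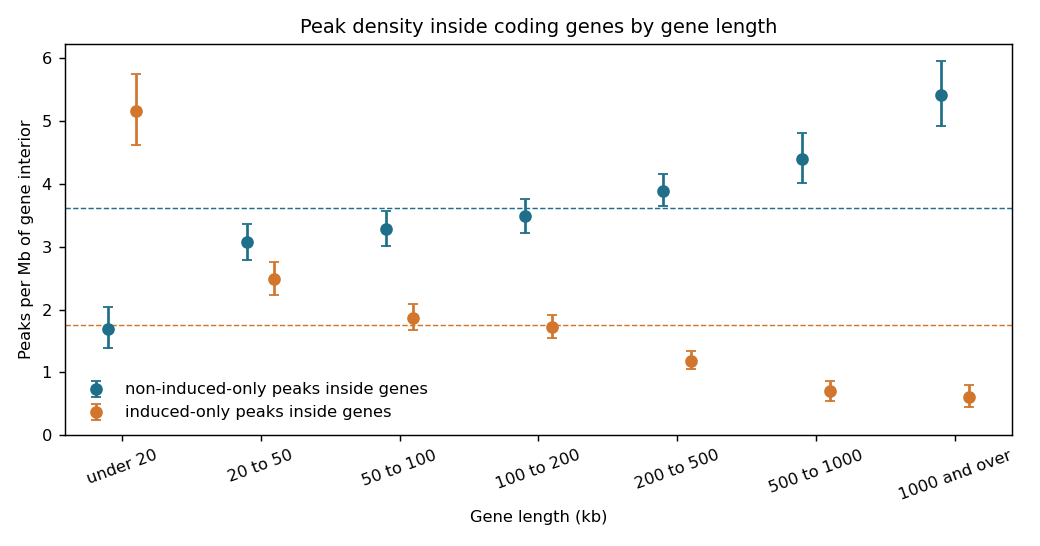
Peaks per Mb of gene interior (vertical axis) in 7 classes of gene length in kb (horizontal axis), for non-induced-only and induced-only peaks inside coding genes. Points are densities, bars exact 95% Poisson intervals and dashed lines the densities over all gene interiors (3.62 and 1.76); the members' density is 1.69 in the shortest and 5.42 in the longest class, and that of induced-only peaks 5.16 and 0.606.

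Induced-only peaks inside genes had the opposite order, from 5.16 per Mb (4.62 to 5.75) in genes under 20 kb to 0.606 (0.447 to 0.804) in genes of 1000 kb and over. Their rule is the mirror image of the members', so the contrast describes the lists and is not a test. Members lay in genes with a median length of 203 kb (190 to 217), with 79.1 and 513 kb as quartiles, and induced-only peaks in genes of 73.7 kb (69.0 to 81.3). The median base of gene interior lay in a gene of 150 kb, and the median gene with an interior was 21.99 kb long. Across the 19 autosomes the members' density was higher in genes of 200 kb and over than in shorter genes on 17, the exceptions being chromosomes 10 (4.25 against 4.26 per Mb) and 19 (2.77 against 2.79). That of induced-only peaks was higher in the longer genes on 0 of 19.

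Of 18711 protein-coding genes with an interior, 2045 (10.9%) held at least 1 member, and 1487 (7.95%) held at least 1 induced-only peak. The share with a member was 1.19% of genes under 20 kb, 17.96% at 50 to 100 kb, 56.3% at 200 to 500 kb, 81.8% at 500 to 1000 kb and 96.6% (57 of 59) from 1000 kb upward. A longer gene offers more sequence for a peak, and the densities above allow for that. Single members were the rule, with 1392 genes holding 1, 362 holding 2, 180 holding 3 or 4 and 111 holding 5 or more. The last 111 genes held 869 members (24.3%), and 58 of them had no induced-only peak inside. Both kinds of peak lay inside 408 of the 2045 genes with a member. As background, the share of all genes with an induced-only peak inside rose with length. It was 3.53% under 20 kb, 30.2% at 200 kb and over and 40.6% at 500 kb and over. These counts were not compared at equal length.

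**Figure D2:**
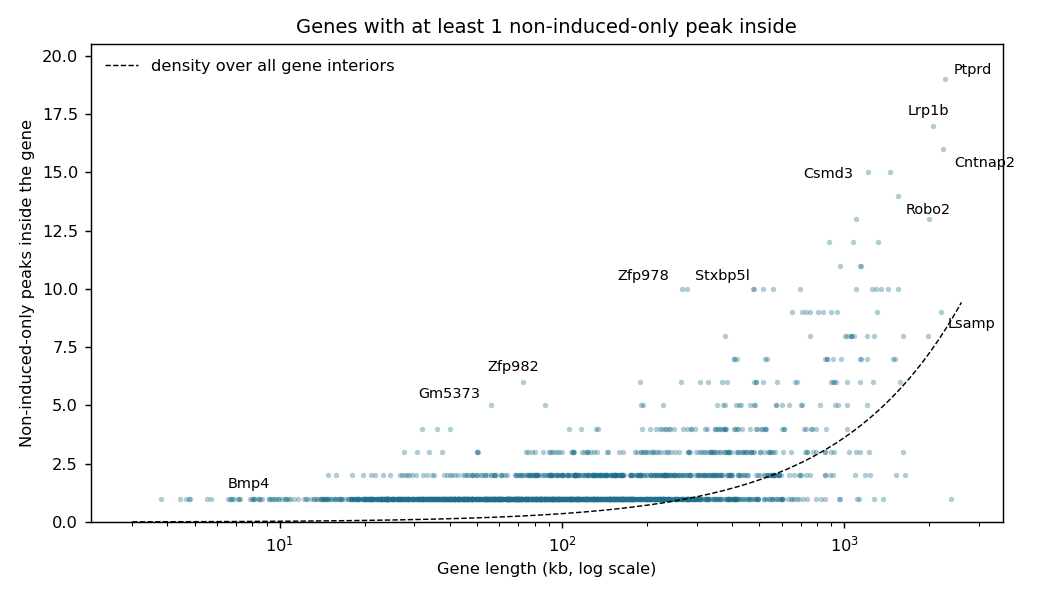
Number of non-induced-only peaks inside each of the 2045 genes that held any (vertical axis) against gene length in kb on a log scale (horizontal axis), 1 point per gene. The dashed line is the count that the density over all gene interiors (3.62 per Mb) gives for each length; Ptprd has 19 peaks, and Stxbp5l and Zfp978 have 10 each in under 300 kb.

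The 10 genes with the most members held 146 of them (4.08%) on 1.64% of the interior sequence, which is 8.99 per Mb, and 12 induced-only peaks. Ties went to the longer gene, which left out Pcdh9, a protocadherin gene with 12 members, as many as Lrrc4c and Erbb4. Ptprd, a receptor tyrosine phosphatase that organises synapses (gene 19266, chr4:75941237-78211742), held 19 members with scores from 50.18 to 96.8 (median 65.66). They were spread over the gene, from 229.802 to 2266.34 kb from its lower-coordinate end, with a median spacing of 80.5 kb and 1 gap of 339 kb. Its 3 highest members, of scores 96.8, 89.97 and 83.83, lay 2243.26, 2266.34 and 301.217 kb along it. The same gene held 1 induced-only peak of score 52.87 and 1 non-induced peak that overlapped an induced one.

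Lrp1b, a giant lipoprotein receptor (gene 94217, chr2:40595290-42653598), held 17 members with scores from 50.66 to 109.16. Cntnap2, a neurexin-family protein of axons (gene 66797, chr6:45060061-47301393), held 16 with scores from 50.3 to 151.95 and a median of 59.6. Of these, 10 lay within 561.818 kb of its start and the other 6 beyond, and 0 induced-only peaks lay inside. The highest Cntnap2 member (chr6:45115794-45116725) lay 56.198 kb from the start, next to one of score 76.29 at 47.172 kb. Csmd3, a large membrane protein with CUB and sushi domains, held 15, with a top score of 77.53. Scores near 50, where both lists begin, were present in each of these genes.

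Robo2, a receptor for the axon guidance cue Slit (gene 268902, chr16:73891976-75447443, minus strand), held 14 members, from 128.021 to 1547.29 kb from its start. Its highest, of score 87.06 at 937.77 kb, lay within 20 kb of one of score 78.19 at 957.497 kb, and its 2 induced-only peaks are marked in the map of peaks along 10 genes. Macrod2, an ADP-ribose hydrolase gene, held 13 members and 4 induced-only peaks, the most of the latter among these 10 genes. The netrin receptor Dcc held 13 members, the netrin-G ligand Lrrc4c 12 and the neuregulin receptor Erbb4 12, with 0, 3 and 0 induced-only peaks. Their densities were 11.9, 9.15 and 11.2 members per Mb, against 6.53 in Macrod2.

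**Figure D3:**
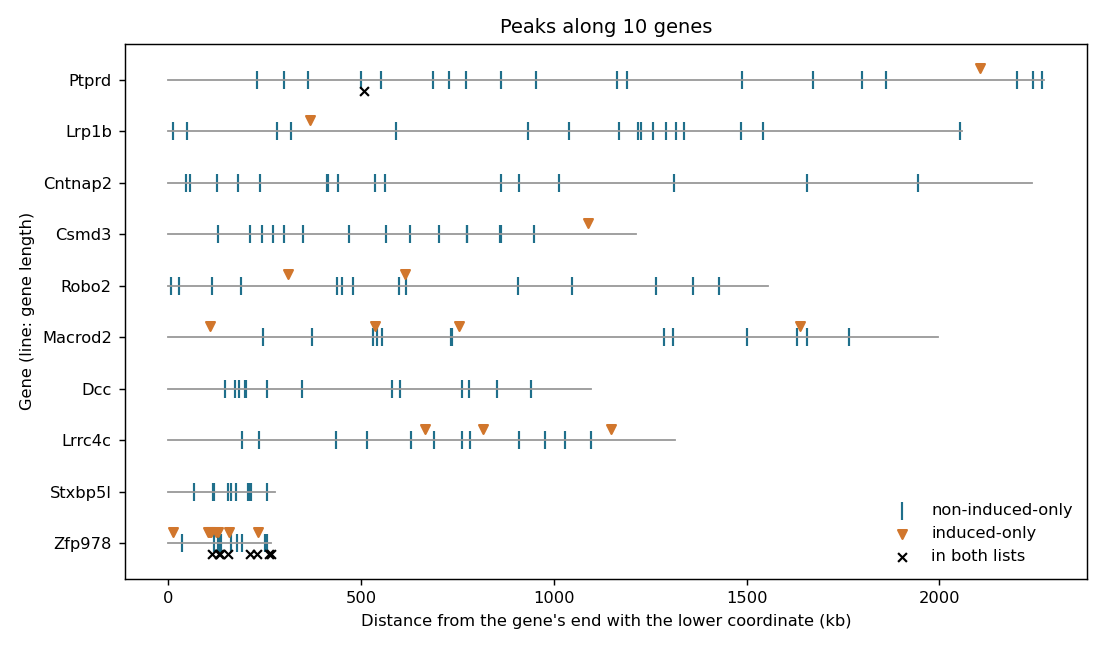
Peaks along 10 genes: 8 of the 10 with the most members, and Stxbp5l and Zfp978, chosen after their values were seen. The horizontal axis is the distance in kb from the gene's end with the lower coordinate, each grey line is 1 gene at its length, ticks are non-induced-only peaks, triangles induced-only peaks and crosses non-induced peaks that overlap an induced one; ticks are spread along the long genes, while Zfp978 has 10 ticks, 9 triangles and 8 crosses in 267 kb.

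Some genes well under 1000 kb also held 10 members, and the 4 given here were singled out after their values were seen. Stxbp5l, a tomosyn-family regulator of vesicle release (gene 207227, chr16:37107075-37385015, minus strand), held 10 members in 278 kb, or 36.2 per Mb (17.4 to 66.6), with scores from 50.78 to 88.98. Of these, 2 lay 0.913 kb apart (chr16:37224024-37224623 and chr16:37224932-37225541, scores 74.23 and 88.98), and the gene had 0 induced peaks inside or at its borders. Cfap299, a cilia and flagella associated gene, held 10 in 473 kb, and the potassium channel gene Kcnd2 10 in 514 kb. The kainate receptor gene Grik2 held 10 in 696 kb, the highest of them at score 130.46. Each of these 4 genes had 0 induced-only peaks inside, and Kcnd2 had an induced peak at a border. Other genes under 1000 kb with 10 members did hold induced-only peaks: B3galt1 (557 kb) 2, Zfp993 (479 kb) 8 and Zfp978 (267 kb) 9.

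Of the 10 highest-scoring members, 1 lay in a gene of 1000 kb or over. The top member, of score 201.75, lay in the claudin-family gene Cldn34d, which is 20.3 kb long, on chromosome X (chrX:76598455-76599259). The next lay in Smg6, the endonuclease of nonsense-mediated decay (198.56, chr11:75071542-75072757, 146.295 kb from the start), and in the zinc finger gene Zfp980 (179.47). Then came Sycp1 of the synaptonemal complex (172.68), Cntnap2 (151.95) and the morphogen gene Bmp4 (147.27, chr14:46384744-46385397). The Bmp4 member lay 1545 bp from a border of a gene of 7.15 kb. Usp53 (146.55), the translational regulator Cpeb4 (142.28), the Mediator subunit gene Med13 (137.86) and the COP9 signalosome gene Cops2 (137.65) completed the 10. By length class, the median score ran from 59.8 to 62.3, with no order by length.

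As a whole, members were peaks of low score and uniform width. The score is the authors' own value for each peak, and both lists begin at 50. Members had a median of 60.3 (59.9 to 60.8) with quartiles of 53.9 and 68.9, and 115 (3.21%, 2.66 to 3.84) reached 100. Non-induced-only peaks between genes had a median of 60.0 (59.7 to 60.3), which is 0.35 lower (-0.34 to 1.08). The interval of this difference joins the outer ends of both median intervals and is not exact. Of induced-only peaks inside genes 17.4% (15.7 to 19.3) reached 100, on a scale whose equality between the lists was not tested. Members were 587 bp wide at the median (quartiles 553 and 617) and peaks between genes 585 bp, against 726 bp for induced-only peaks inside genes. Members, at 3.62 per Mb, were less dense than non-induced-only peaks between genes, at 4.03 (3.93 to 4.13). Induced-only peaks had 1.76 (1.68 to 1.84) inside genes and 0.851 (0.806 to 0.897) between them.

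Along genes of known strand, members were spread almost evenly. Of 2775 members in such genes, 1441 (51.9%, 50.05 to 53.8) lay nearer the start than the end. Over 5 equal parts of the gene, from its start, they were 20.4%, 20.4%, 21.8%, 20.6% and 16.9% (15.5 to 18.3), and the interval of the last part lay below those of the other 4. Of 1362 induced-only peaks 69.3% (66.8 to 71.8) lay nearer the start, and 45.6% in the first part. Members lay a median of 38.2 kb from the nearest border, and 28.0% were over 100 kb from one, against 21.4% of interior bases. Within 5 kb of a border were 11.1% of members, against 13.5% of interior bases and 49.6% of induced-only peaks.

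**Figure D4:**
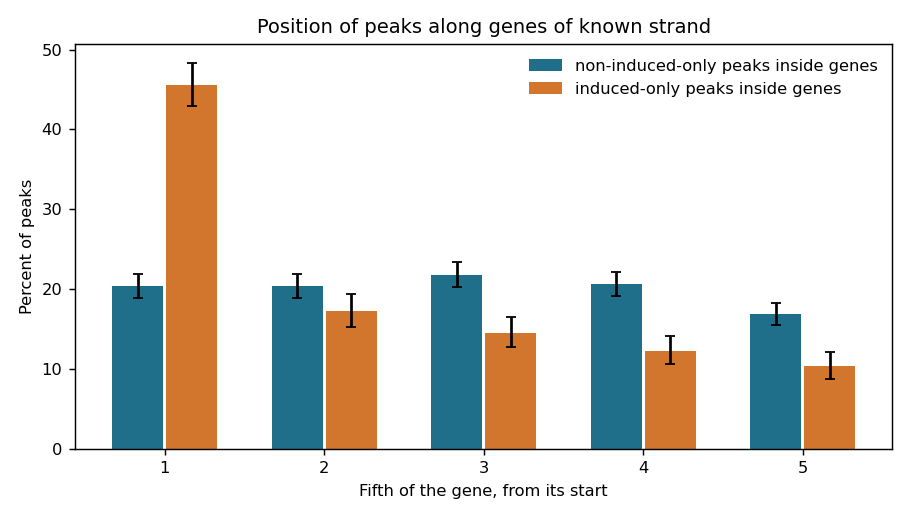
Percent of peaks (vertical axis) in each of 5 equal parts of the gene counted from its start (horizontal axis), for 2775 non-induced-only and 1362 induced-only peaks inside genes of known strand. Error bars are exact 95% binomial intervals; the first 4 bars of the non-induced-only peaks lie between 20.4% and 21.8%, and the first bar of the induced-only peaks is at 45.6%.

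The 1 kb limit of the rule falls within a continuous run of distances. Just inside it were members in Gin1 (1005 bp from a border, score 126.11), the zinc finger gene Zfp953 (1025 bp, 59.83) and the translation initiation factor gene Eif3b (1027 bp, 68.13). Just outside were non-induced-only peaks in Ggnbp2 (1000 bp, 60.61), the peroxiredoxin-like Prdx6b (999 bp, 52.27) and the olfactory receptor gene Olfr18 (985 bp, 82.36). The shortest genes with a member were Nudt16 (3.80 kb), the cytokine gene Tslp (4.42 kb), Dlx6 (4.64 kb) and the predicted gene Gm9758 (4.77 kb), each with 1. Kdm2b itself (gene 30841) held 0.

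Members lay about as far from induced peaks as gene interior in general. The nearest induced peak was a median of 195 kb away (quartiles 66.7 and 484 kb), against 183 kb (65.5 and 471 kb) over every 1000th base of gene interior. An induced peak lay within 5 kb of 103 members (2.88%) and of 2.29% of those bases, although the rule had left out peaks that overlapped one. Genes with a member were marked at their borders by induced peaks about as often as other genes: 310 of 2045 (15.2%, 13.6 to 16.8) had an induced peak within 1 kb of a border, against 2427 of 16666 without a member (14.6%, 14.0 to 15.1) and 14.6% of all genes with an interior. That comparison pools all lengths, although genes with a member were longer. Under 50 kb the share was 17.8% (14.6 to 21.4) with a member and 14.5% (13.9 to 15.1) without. At 200 kb and over it was 12.8% (10.3 to 15.7) and 12.2% (8.97 to 16.0). Among the 57 genes of 1000 kb and over with a member, 3 had an induced peak at a border. Neighbouring members were a median of 226 kb apart, and 216 of 3562 neighbouring pairs (6.06%) were within 10 kb.

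Gene families were described with 31 lists, 26 of which held at least 1 member. For each, the density was set beside the 3.62 per Mb of all gene interiors and the count beside what the density of each gene's length class gives. The interval lay above 3.62 per Mb in 6 lists and below it in 1, which is not reported here. These intervals are not adjusted for the number of lists, members of 1 gene are not independent, and no test was made.

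Genes of synaptic adhesion and of ion channels held many members, near the number that their lengths give. The 8 lists of this kind (cadherins, contactins and neurexins, IgLON and Cadm proteins, glutamate and GABA receptors, potassium, calcium and sodium channels, adhesion GPCRs) together had 311 members (8.68%, 7.78 to 9.65) on 6.57% of interior sequence, or 4.79 per Mb (4.27 to 5.35), where length classes give 286. Of their 270 genes 83 (30.7%) held a member, against 10.9% of all genes with an interior, a share not compared at equal length. They held 44 induced-only peaks, 2.53% of those inside genes, at 0.678 per Mb against 1.76 over all gene interiors. Apart from these 8 lists, axon guidance receptors and ligands had 69 members, 7.34 per Mb (5.71 to 9.28), where length classes give 42.1. Of the 69, 27 were in Robo2 and Dcc. Cadherins and protocadherins had 58 (5.80 per Mb, 4.40 to 7.498, against 45.2), led by Pcdh9 with 12 and Pcdh15, a protein of hair cell tip links, with 10. Contactins, Cntnap proteins, neurexins and neuroligins had 66 against 59.4, led by Cntnap2 and by Nrxn3 with 8. Glutamate receptors had 47 against 40.0, of which 10 were in Grik2.

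Other families with neuronal members held between 11 and 46. Receptor phosphatases had 39 members against 36.5 (Ptprd 19, Ptprk 7), Eph receptors and ephrins 18 against 11.9 (Epha6 7, Epha5 4), and IgLON and Cadm adhesion proteins 30 against 31.2 (Cadm2 11, Lsamp 9). Potassium channels and their partners had 46 against 41.4 (Kcnip4 11, Kcnd2 10), GABA receptors 11 against 10.1 (Gabra2 and Gabrg1 2 each), and calcium and sodium channels 19 against 23.2 (Cacna2d3 5, Cacna1c 4). Adhesion GPCRs and teneurins had 34 against 35.7, of which 10 were in Tenm3. Neuron markers, a list of 10 genes, had 12 members in 3 of them against 5.79, and fibroblast markers, a list of 13, had 2 against 1.73. Blood markers had 2, both in Ptprc, against 0.589.

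**Figure D5:**
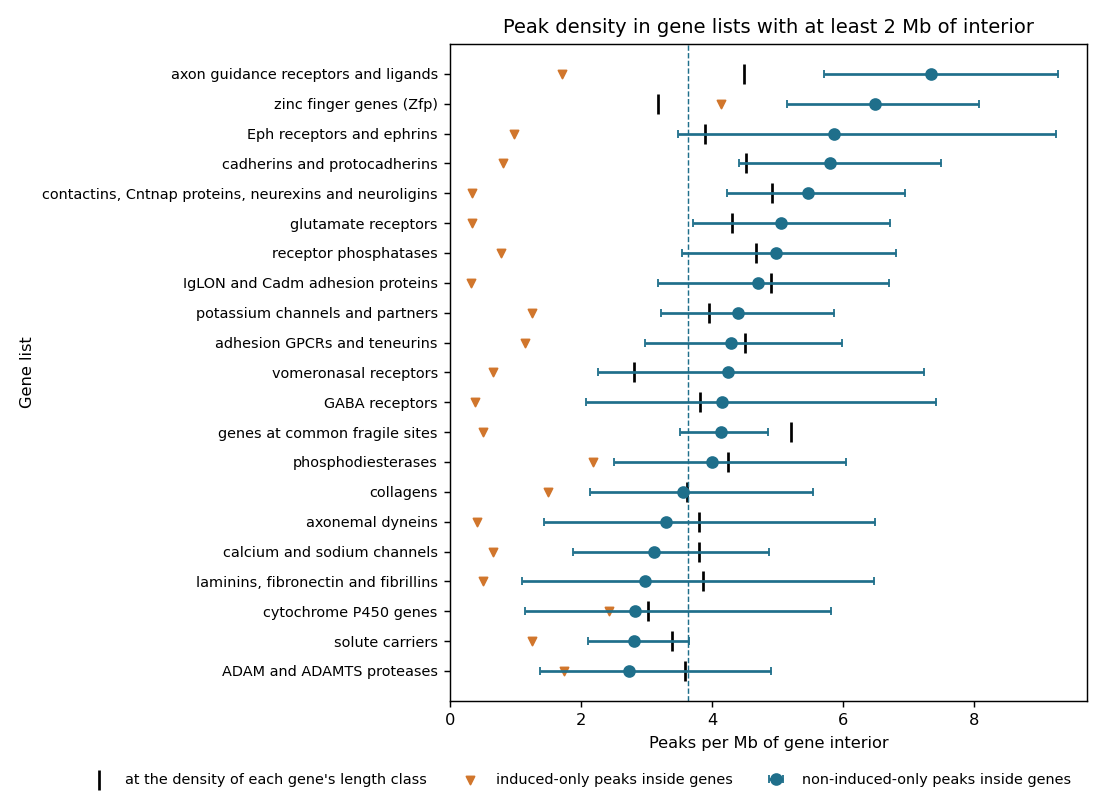
Peaks per Mb of gene interior (horizontal axis) in the reported gene lists with at least 2 Mb of interior (vertical axis). Circles are non-induced-only peaks with exact 95% Poisson intervals, black bars the density that each gene's length class gives, triangles induced-only peaks, and the dashed line 3.62 per Mb; axon guidance genes are at 7.34, genes at common fragile sites at 4.13 and solute carriers at 2.80.

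Lists outside these families were mostly at or below the number their lengths give. Genes at common fragile sites, among them Lsamp and Macrod2, had 151 members in 26 of 28 genes, or 4.13 per Mb (3.50 to 4.85), where length classes give 190. The neurodevelopmental gene Auts2 and the adhesion gene Sdk1 were those with 0. Solute carriers had 54 against 65.2, collagens 19 against 19.4, phosphodiesterases 22 against 23.4 (Pde4d 9), and ADAM and ADAMTS proteases 11 against 14.4. Laminins, fibronectin and fibrillins had 6 against 7.77, cytochrome P450 genes 7 against 7.48 and axonemal dyneins 8 against 9.21. Olfactory receptor genes had 2 members, in Olfr1033 and Olfr872, against 1.95, since only 148 of 1106 are long enough to have an interior. Vomeronasal receptor genes had 13 against 8.62.

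Zinc finger genes named Zfp had 80 members, 6.49 per Mb (5.14 to 8.07), where length classes give 39.1, but 44 of these lay on distal chromosome 4 between 145 and 148 Mb. In that stretch 55 members fell in 13 genes, beside 30 induced-only peaks and 58 non-induced peaks that overlapped an induced one. Zfp978, at chr4:147124882-147392027, held 10 members with scores from 50.86 to 114.77, 9 induced-only peaks and 8 peaks found in both lists. Outside the stretch Zfp genes had 36 members, 3.21 per Mb (2.25 to 4.44). The stretch holds many similar gene copies, and the treatment of reads that match several copies was not given in the sources used here. Its part in these counts was not tested.

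Some lists held no member, though they offer little interior. Hox genes, which pattern the body axis, had 0 members and 7 induced-only peaks in 0.190 Mb, an exact interval of 0 to 19.4 members per Mb (the limit of 3 counts for a count of 0 is 15.8 per Mb). Keratins, clustered histone genes, PRC1.1 genes and endothelial and epithelial markers also had 0, with length classes giving 0.662, 0.144, 1.74 and 0.704.

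By chromosome, members ranged from 2.44 per Mb on chromosome 7 to 5.15 on chromosome 3, around an autosomal density of 3.78 (3.66 to 3.91). Chromosome X had 14 members, or 0.320 per Mb (0.175 to 0.537), and also a low density of induced-only peaks, 0.183 against 1.83 on autosomes. Chromosome Y had 0 members in 1.96 Mb. The sex of the embryos is not given in the labels. Non-coding genes within coding genes held members about as often as bases: 3.94% (3.32 to 4.63) of members lay inside a lncRNA gene, which covers 4.29% of interior bases, and 1.01% (0.705 to 1.39) lay within 1 kb of a lncRNA border, against 1.27% of bases. For induced-only peaks these shares were 6.91% and 5.70%.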

How the data were processed

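Data were 2 peak lists, 1 each for the non-induced and the induced HA ChIP library. Per the submitters' processing notes, reads were aligned to mm10 with Bowtie2, and the authors called peaks with MACS, as the peaks' names in the deposited files show. Versions, threshold, pooling and the use of input were not given in the sources used here. Each deposited row gives a position and the authors' score, whose formula is not given there either. Starts were counted from 1.

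Genes came from RefSeq (GRCm38.p6, the coordinates of mm10), without exons, and strand was known for 17492 of 21887 coding genes. Peaks were shared if they overlapped by at least 1 bp. A base or midpoint in several genes went to the longest, and gaps and unmappable sequence were not excluded. Sequence of members was planned but could be read only in promoter windows.

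Named genes are those around the 10 highest-scoring members, the 10 with the most members, the 4 shortest, up to 2 per gene list, those of 3 peaks on each side of the 1 kb limit, and Kdm2b. Others were chosen after their values were seen. Some genes and lists that this rule takes are not reported here. The members and lists were chosen with earlier results of these data known. Functions were tested on simulated data, and overlaps were checked against bedtools 2.31.1. Scripts ran in Python 3.11.15 with SciPy 1.17.1, pandas 2.3.3, matplotlib 3.10.9 and numpy 2.4.6.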

Additional observations from a re-analysis of the deposited data

How the results depend on the processing

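Of 110 values under 11 alternatives for 10 results, 94 stayed within the main value's interval, or within 1.5 times a count. The alternatives were borders of 500 bp and 5 kb, peaks shared only if 50% of the shorter one overlapped or if up to 1 kb apart, a score at or above the non-induced median (60.2), predicted genes left out, the shortest of overlapping genes in place of the longest, no sex or mitochondrial chromosomes, 1 member per gene, and 2 chosen after seeing the data (distance from the peak's edge, and no 1 Mb bins with 3 or more shared peaks). With borders of 5 kb, 28.1% of members were in genes of 500 kb or longer, the median gene length was 234 kb, 12.9% of genes held a member and olfactory receptor genes held 1. At the higher score there were 1811 members, 6.504% of genes held one, olfactory receptor genes held 0, the synaptic lists held 9.66%, and the score difference to peaks between genes was -0.37. Without sex and mitochondrial chromosomes 11.4% of genes held a member. With at most 1 member per gene, the highest-scoring, 2045 were left. Of these 9.39% were in genes of 500 kb or longer and 4.06% in the synaptic lists, and the median length was 110 kb. The score difference was then 2.89. That rise is set by the choice, since each gene kept its highest score and peaks between genes were not thinned. The density ratio of long to short genes then turned to 0.421, since a long gene can then count only once; under the other alternatives it stayed above 1. No paired analysis was possible because each condition has 1 list. There were no replicates or read counts, so neither the spread between samples nor the depth behind a peak is known, and base composition, repeats and exons were not measured.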
